A study of Mus musculus with 2 samples.

Results

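The 10 genes described here encode the enzymes that hydroxylate collagen chains, the enzymes that crosslink them, and the chaperone that holds the folded chains: P4ha1, P4ha2, P4ha3, Plod1, Plod2, Plod3, Lox, Loxl1, Loxl2 and Serpinh1. They were taken by name from 34844 gene names on the array and had 18 probes, of which 12 probes of 8 genes were bright enough to test. Loxl1 was called higher in mutant islets, at 2.15-fold by its brighter probe and 1.37-fold, not called, by its dimmer one. Its control 1 signal was not well above background, the fold of the brighter probe was 3.16 with no offset and 3.82 with processed signals, and the call was lost in 5 of 7 other settings. Serpinh1 was 1.81-fold higher without passing the test, and the mean log2 ratios of the prolyl and lysyl hydroxylases lay close to 0. Plod2 and Lox were too dim to test.

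Collagen chains are modified in the endoplasmic reticulum before they fold. Prolyl 4-hydroxylases, tetramers of an alpha subunit (P4ha1, P4ha2 or P4ha3) with the disulfide isomerase P4hb, hydroxylate prolines and so stabilise the triple helix, while the lysyl hydroxylases Plod1, Plod2 and Plod3 act on lysines. Both enzyme families use iron, oxygen and 2-oxoglutarate and need ascorbate (vitamin C). Serpinh1, also called Hsp47, binds the folded procollagen, and after secretion lysyl oxidases (Lox, Loxl1, Loxl2), which are copper enzymes, oxidise lysines of collagen and elastin so that the chains crosslink. In the pancreas, fibrillar collagen is made mainly by stellate cells and fibroblasts, and islet endocrine cells make little of it.

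The samples were pancreatic islets of control mice and of mice carrying the RbΔK7 allele, a knock-in version of Rb, the retinoblastoma tumour suppressor, built to resist phosphorylation, 2 samples of each genotype. Each of 2 two-colour arrays on 1 slide held 1 control sample (green, Cy3) and 1 mutant sample (red, Cy5), and the dyes were not exchanged, so a dye effect and the genotype cannot be told apart. Islets were freed with collagenase and picked by hand, with no sort of cell types. The labels give no age, sex, strain or stage of diabetes, nor how many mice gave each sample, and a transcript level does not check the knock-in allele. The series' title names vitamin C, but both groups used here are labelled by genotype alone.

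The array read 55681 gene probes, and 22266 were tested because they stood well above background in at least 1 channel on both arrays. The share of probes well above background was 35.9% and 36.9% in the controls and 39.7% and 46.9% in the mutants, and 0 spots were saturated. The 15 islet endocrine markers were well above background in all 4 samples, with a median log2 level of 14.36 in control 1, 15.16 in mutant 1, 15.25 in control 2 and 15.51 in mutant 2. Islet RNAs were thus present in each sample, which does not measure purity. A summed log2 level, here and below, is the log2 of the summed intensities of a list's tested genes, so the brightest genes weigh most. The 15 acinar markers had summed log2 levels of 20.20 and 21.42 in the controls and of 20.62 and 16.85 in the mutants. Mutant 2 thus held far less acinar RNA than the other 3 samples, and the part of this in any ratio of the second array was not tested. The islet endocrine markers had sums of 19.63 and 19.52 in the controls and of 19.76 and 20.21 in the mutants. The acinar sum was therefore the larger in control 1, mutant 1 and control 2. In such bulk samples, fewer cells of a type and less RNA per cell cannot be told apart. The number of arrays limits the precision. The p-values rest on the spread between these 2 pairs and, with more weight, on a variance pooled over all tested probes.

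A ratio below is the log2 ratio of mutant over control within an array, a level is a log2 intensity on a scale made common to both arrays, and a test is limma's moderated test of the 2 ratios against 0, with Benjamini-Hochberg adjustment over all 22266 tested probes. At an adjusted p under 0.05 it called 82 probes (0.368%) higher and 3 probes (0.0135%) lower in the mutant. Of the 8 tested genes, each counted by its brightest tested probe, 1 was called higher (Loxl1) and 0 lower, and 2 (Loxl1 and Serpinh1) had an unadjusted p under 0.05, as 2528 of all tested probes did. Ratios were above 0 on both arrays for 4 genes (P4ha2, Plod3, Loxl1 and Serpinh1), as they were for 32.3% of all tested probes. They were below 0 on both arrays for 1 gene (P4ha3), against 25.3% of all tested probes, and differed in sign for P4ha1, Plod1 and Loxl2. The median ratio of the 8 genes was 0.14 on the first array and 0.21 on the second, against 0.02 and 0.02 for all tested probes. Both mutant levels exceeded both control levels for 2 of the 8 genes, Plod3 and Loxl1, and for 21.9% of all tested probes.

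**Figure D1:**
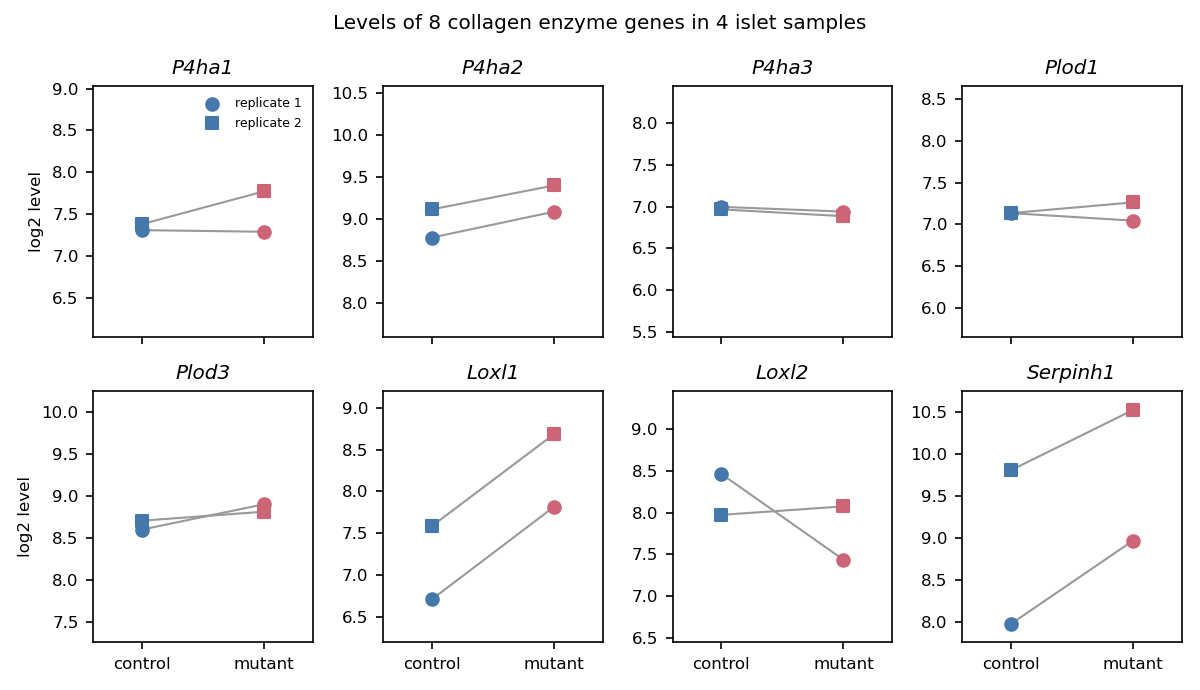
Log2 level of the brightest tested probe of each of the 8 tested genes in 4 samples; circles are the replicate 1 array, squares the replicate 2 array, and a line joins the control (blue) and mutant (red) sample hybridised together. Every panel spans the same range of log2 units around its own centre. For P4ha2, Plod3, Loxl1 and Serpinh1 the mutant lies higher on both lines, with the larger steps for Loxl1 and Serpinh1. The replicate 2 control of Serpinh1 (9.81) lies above the replicate 1 mutant (8.97).

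The probes of Loxl1, Loxl2 and Serpinh1 are shown because the largest ratios and the disagreements between probes of 1 gene lie in these genes. Each line gives the first 30 bases of a probe of 60 bases, as the scanner files list them, in lower case.
Loxl1 probe 1 (chromosome 9, 58138570 to 58138629, mm9): aacgtggtgagatgcaacatccactacaca
Loxl1 probe 2 (chromosome 9, 58145451 to 58145510, mm9): aactacgtgcaggcatccacatacgtgcag
Loxl2 probe 1 (chromosome 14, 70095254 to 70095313, mm9): caccaaaggcttcgggactcctgtgtgtag
Loxl2 probe 2 (chromosome 14, 70090017 to 70090076, mm9): tgacattgactgccagtggatagacatcac
Loxl2 probe 3 (chromosome 14, 70092141 to 70092200, mm9): tgaagtgccagaatcagatttctctaacaa
Serpinh1 probe (chromosome 7, 106493971 to 106494030, mm9): ggggaggggaaatatgagcctttgttgctt
Positions are those in the file headers' genome build, and whether a probe lies in an exon or a UTR was not analysed here. Probes of a gene are numbered by brightness.

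Among the prolyl 4-hydroxylase alpha subunits, 0 of 3 tested genes passed the test. P4ha1, the widely expressed alpha subunit, had a level of 7.31 in control 1, 7.29 in mutant 1, 7.38 in control 2 and 7.77 in mutant 2 (chromosome 10, 58835625 to 58835684). Mutant 2 was the high sample and mutant 1 the lowest of the 4, so the genotypes overlapped. The ratios were -0.02 and 0.39, with a mean of 0.19 ± 0.29 (SD, n = 2 arrays) and a limma adjusted p = 0.729. A dimmer P4ha1 probe, well above background in mutant 2 alone, was not tested and had ratios of 0.18 and 0.28.

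P4ha2, another alpha subunit, had a level of 8.78 in control 1, 9.09 in mutant 1, 9.11 in control 2 and 9.40 in mutant 2 (chromosome 11, 53945032 to 53945091). Each mutant was above its own control by a nearly equal step, while control 2 lay just above mutant 1. The ratios were 0.31 and 0.29, a mean of 0.30 ± 0.016 (SD, n = 2) and a fold of 1.23, with a limma adjusted p = 0.477.

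P4ha3, the third alpha subunit, had a level of 6.996 in control 1, 6.94 in mutant 1, 6.97 in control 2 and 6.88 in mutant 2 (chromosome 7, 107463120 to 107463179). All 4 samples lay close together, with both mutants below both controls by less than the step seen for P4ha2. The ratios averaged -0.07 ± 0.018 (SD over 2 arrays; limma adjusted p = 0.898), and it turned to 0.30 when arrays were centred on their median in place of loess, a setting that put the median of all tested probes at 0.62. A second P4ha3 probe was not well above background in any sample.

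The lysyl hydroxylases likewise had 0 of 2 tested genes past the threshold. Plod1, which hydroxylates lysines in the helical part of the chain, had a level of 7.13 in control 1, 7.04 in mutant 1, 7.13 in control 2 and 7.26 in mutant 2. The controls were alike and the mutants lay on either side of them. The ratios were -0.09 and 0.13, a mean of 0.02 ± 0.15 (SD, n = 2), with a limma adjusted p = 0.978. The mean was negative with Agilent's processed signals, an offset of 0, the series matrix, the mean over tested probes (-0.08) or the first array alone.

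The listed position of that Plod1 probe spans 1421 bases of chromosome 4 (147290037 to 147291457), more than its 60 bases. A second tested Plod1 probe, at 147302568 to 147302627, had ratios of -0.20 and -0.17 with a limma adjusted p = 0.670. The 2 tested probes of the gene thus differed in sign on the second array, and neither passed.

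Plod3, which also adds sugars to hydroxylysine, had a level of 8.60 in control 1, 8.90 in mutant 1, 8.71 in control 2 and 8.81 in mutant 2 (chromosome 5, 137472079 to 137472138). Both mutants lay above both controls, by a wide step on the first array and a narrow one on the second. The ratios were 0.30 and 0.11, a mean of 0.21 ± 0.14 (SD, n = 2) and a fold of 1.15, with a limma adjusted p = 0.649.

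Plod2, the hydroxylase of the telopeptide lysines that form the stiffer crosslinks, was well above background in mutant 2 and in no other sample (chromosome 9, 92502483 to 92502542). Its measured levels were 6.17 in control 1, 6.39 in mutant 1, 6.31 in control 2 and 6.39 in mutant 2, close to background, so that a difference was not detectable at this brightness.

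**Figure D2:**
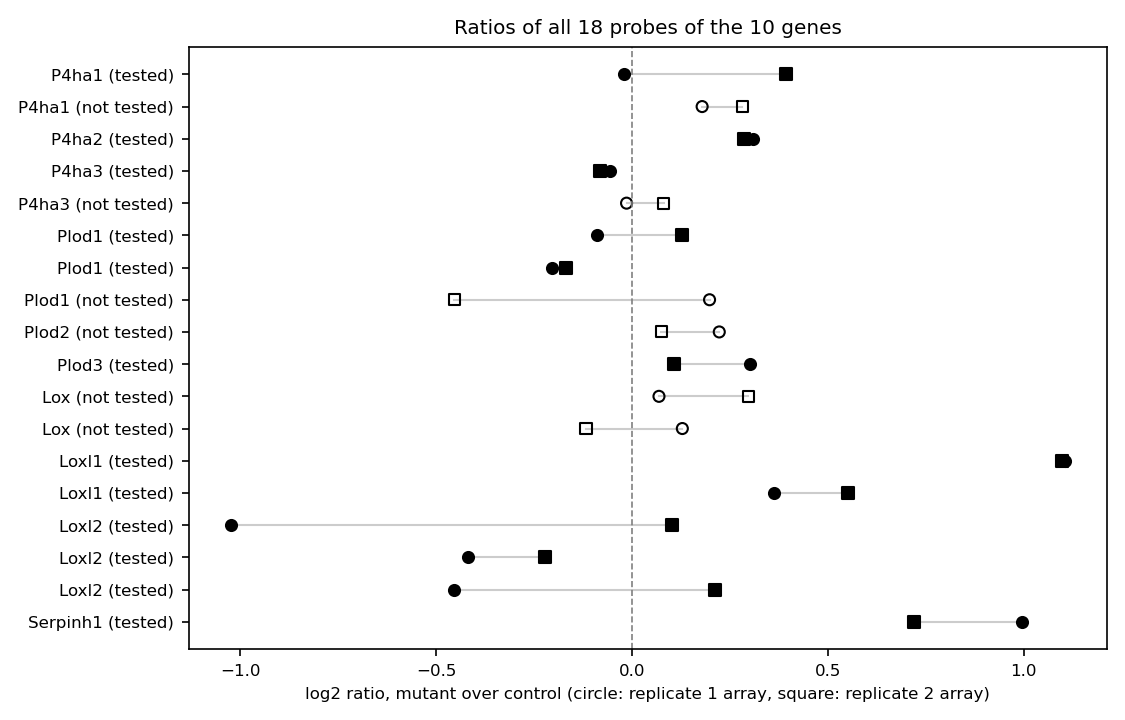
Log2 ratio of mutant over control for all 18 probes of the 10 genes, circles for the replicate 1 array and squares for the replicate 2 array, joined by a grey line; filled symbols were tested and open ones were too dim. Both symbols lie well to the right for the brighter Loxl1 probe and for Serpinh1, and the longest line belongs to the brightest Loxl2 probe, from -1.02 to 0.10.

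Of the lysyl oxidases, Loxl1 rose, Loxl2 did not pass the test and Lox was not measured well enough to test. Loxl1, the member of the family tied to elastic fibres, had a level of 6.71 in control 1, 7.81 in mutant 1, 7.58 in control 2 and 8.68 in mutant 2 by probe 1. Both mutants were above both controls, although control 1 was not well above background and control 2 came close to mutant 1. The ratios were 1.11 and 1.10, a mean of 1.10 ± 0.0051 (SD, n = 2), which is 2.15-fold, with a limma adjusted p = 0.0481. That p lay just under the threshold, and over 7 other settings of the same probe it ran from 2.55e-05 to 0.740 and passed in 2.

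The second Loxl1 probe was dimmer, with a level of 6.28 in control 1, 6.65 in mutant 1, 6.85 in control 2 and 7.40 in mutant 2. Each mutant was above its own control, but control 2 was above mutant 1. Its ratios were 0.36 and 0.55, averaging 0.46 ± 0.13 (SD over 2 arrays; limma adjusted p = 0.305), and with both probes averaged the Loxl1 mean was 0.78 with a limma adjusted p = 0.103. In the authors' deposited ratios, turned to log2 and formed without the added offset of 50, probe 1 had 2.51 and 1.35 and probe 2 had 2.54 and 1.07. There the probes were much alike on each array while the arrays differed, and the limma adjusted p of probe 1 was 0.315.

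Loxl2, a lysyl oxidase best known from basement membrane collagen, had a level of 8.46 in control 1, 7.44 in mutant 1, 7.97 in control 2 and 8.07 in mutant 2 by its brightest probe. Mutant 1 was the lowest of the 4 samples and its control the highest, and the second pair was nearly level. The ratios were -1.02 and 0.10, a mean of -0.46 ± 0.80 (SD, n = 2), with a limma adjusted p = 0.594. The spread between the arrays exceeded the mean.

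Loxl2 probe 2 had levels of 7.73 in control 1, 7.31 in mutant 1, 7.55 in control 2 and 7.32 in mutant 2, so that both mutants were below both controls. Its ratios were -0.42 and -0.22, averaging -0.32 ± 0.14 (SD over 2 arrays; limma adjusted p = 0.466). Probe 3 had ratios of -0.45 and 0.21, averaging -0.12 ± 0.47 (SD over 2 arrays; limma adjusted p = 0.873). All 3 probes were thus below 0 on the first array and differed in sign on the second, and with median centring the mean of the brightest probe turned to 0.20.

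Lox, which gave the family its name, had a pair of probes on chromosome 18. The first was well above background in mutant 2 alone, with ratios of 0.07 and 0.30, and the second in no sample, with ratios of 0.13 and -0.12. A difference in Lox was not detectable at this brightness, and neither probe was tested.

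Serpinh1, the collagen chaperone, had a level of 7.97 in control 1, 8.97 in mutant 1, 9.81 in control 2 and 10.53 in mutant 2. Each mutant was above its own control, but the whole second pair was above the first, and control 2 exceeded control 1 by 1.84, more than either ratio. The ratios were 1.00 and 0.72, giving 0.86 ± 0.20 on average (SD, n = 2), which is 1.81-fold, and the limma adjusted p of 0.0962 missed the threshold. Over 8 other settings the mean stayed above 0, from 0.86 to 1.67, and the p passed in 2, median centring (4.37e-05) and no filter on dim probes (0.0273).

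**Figure D3:**
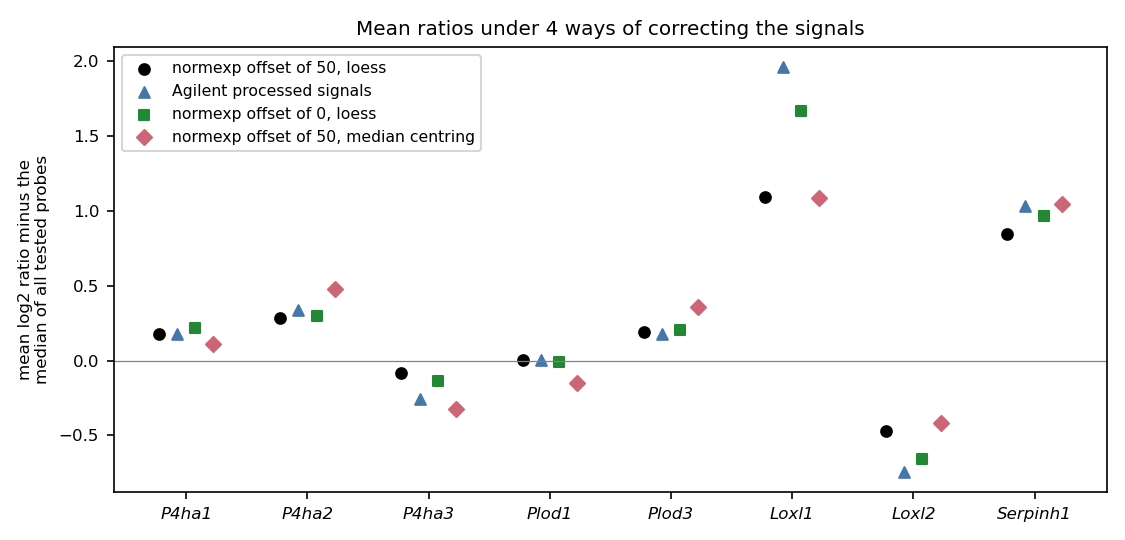
Mean log2 ratio of the brightest tested probe of each gene, less the median of all tested probes, under 4 ways of correcting the signals (n = 2 arrays; no error bars are drawn). Relative to that median Loxl1, Serpinh1, P4ha2, Plod3 and P4ha1 lie above 0 and P4ha3 and Loxl2 below 0 in all 4, and the Loxl1 mean runs from 1.09 to 1.96.

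The chains on which these enzymes act were set beside them. Of 12 substrate genes 11 were tested, all 11 had ratios above 0 on both arrays, and 5 rose by the same test (limma adjusted p from 0.0262 to 0.0446) with 0 lower. Over all tested probes 32.3% were above 0 on both arrays and 0.368% were called higher. The 5 calls were lost, as all calls were, with processed signals, an offset of 0, a trended and robust prior, series matrix values or separate channels. Col5a1 and Eln were not well above background in control 1, nor was Col5a2 in either control. There they entered the test through the mutant channel, so the count of 11 rested partly on the filter. The median ratio of the substrates was 0.90 on the first array and 0.94 on the second, against 0.14 and 0.21 for the enzymes and chaperone. Col1a1, a chain of collagen I, had a level of 7.52 in control 1, 10.18 in mutant 1, 10.20 in control 2 and 12.34 in mutant 2. The pairs again stood apart, with control 2 above control 1 by 2.68, and the mean ratio of 2.40 ± 0.37 (SD, n = 2) was 5.26-fold. Col1a2 (2.54 ± 0.65), Col3a1 (2.17 ± 0.73), Col6a1 (1.55 ± 0.32) and Col5a1 (1.47 ± 0.038) also rose as mean log2 ratios (SD, n = 2). Col5a1 was not well above background in control 1, so its ratio is limited by brightness. Its mean was 2.83 with an offset of 0 and 3.29 with processed signals.

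Of the other chains, Col6a2 had a mean ratio of 0.92, Col6a3 of 0.79, Col5a2 of 0.59 and Col4a1, a basement membrane chain, of 0.56, and none of these passed. Col5a2 was not well above background in either control, so its value is bounded by brightness, and its mean was 1.52 with an offset of 0 and 2.09 with processed signals. Over the substrates the median difference in level between control 2 and control 1 was 1.18, and over the 8 enzyme and chaperone genes it was 0.09. This difference was 1.84 for Serpinh1 and 0.88 for Loxl1, and the hydroxylases had values of 0.34 (P4ha2) or less. Whether the enzymes differed from their substrates in ratio was not tested.

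**Figure D4:**
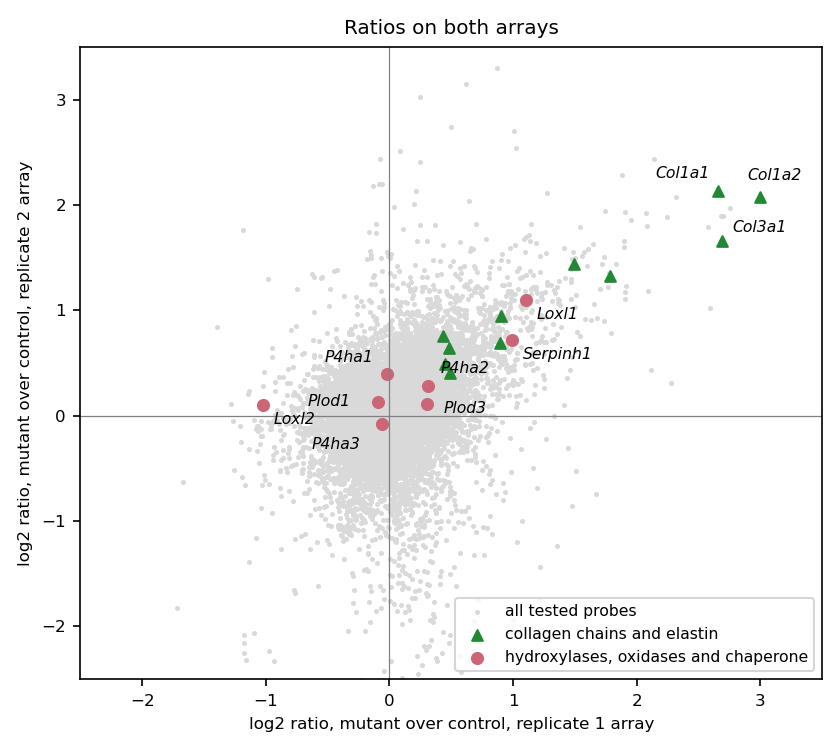
Log2 ratio of mutant over control on the replicate 1 array (horizontal) and the replicate 2 array (vertical) for all tested probes (grey), 11 substrate genes (green triangles) and 8 enzyme and chaperone genes (red circles); 94 probes lie outside the axes. Loxl1 and Serpinh1 sit among the collagens in the upper right, and the hydroxylases sit in the grey mass near 0.

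Among 30 genes that help collagen mature, 23 were tested and 3 rose, with 0 lower. Ratios were above 0 on both arrays for 12, below 0 on both for 4 and of opposite sign for 7, with medians of 0.14 and 0.22. The shares over all tested probes were 32.3% above 0 on both arrays, 25.3% below 0 on both and 0.368% called higher. Tgm2, a transglutaminase that crosslinks matrix proteins, averaged 1.37 ± 0.14 (SD over 2 arrays; limma adjusted p = 0.0397). Adamts2, which removes the N-propeptide of procollagen, had 1.27 ± 0.048 (limma adjusted p = 0.0419), and Sparc, a collagen-binding matrix protein, had 1.22 ± 0.21 (limma adjusted p = 0.0469).

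Pcolce, the enhancer of the C-propeptidase, measured 1.90 and 1.11 on the arrays (limma adjusted p = 0.0647). Fkbp10, a prolyl isomerase that works with lysyl hydroxylation, measured 0.81 and 0.97 (limma adjusted p = 0.0767), and the propeptidase Adamts14 had 0.65 and 0.32. Bmp1, the C-propeptidase itself, had ratios of -1.04 and -0.19 with a limma adjusted p = 0.377. P4hb, the partner subunit of the prolyl 4-hydroxylases, had ratios of 0.10 and -0.15 and was chosen for mention after its values were seen.

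Markers of stellate cells and fibroblasts were read beside Loxl1, Serpinh1 and the collagens. Of 16 such markers 15 were tested, 6 were called higher and 9 did not pass, and all 15 had ratios above 0 on both arrays. Their summed log2 level was 11.87 in control 1, 13.88 in mutant 1, 13.72 in control 2 and 15.28 in mutant 2, so that control 2 again lay close to mutant 1. The number well above background was 11, 15, 15 and 16 in that order, and Des was not tested. Pdgfra was not well above background in either control, nor were Lum, Fbn1 and Postn in control 1. There they entered the test through the mutant channel, so the count of 15 rested partly on the filter. Over all tested probes 32.3% had ratios above 0 on both arrays and 0.368% were called higher. The list shares Col1a1, Col1a2 and Col3a1, 3 of its 6 called genes, with the substrates. Its part in the ratios of Loxl1 and Serpinh1 was not tested.

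Ratios were above 0 on both arrays for 9 of 11 endothelial, 8 of 10 duct, 7 of 10 leukocyte, 5 of 5 Schwann and neural and 4 of 15 islet endocrine markers tested, and for 32.3% of all tested probes. Of these lists, endothelial markers had 1 of 11 called higher (Vwf, 1.60 ± 0.020, SD, n = 2) and summed log2 levels of 13.72 and 13.91 in the controls and of 13.85 and 14.30 in the mutants. The endothelial receptor Kdr, chosen for mention after its values were seen, had ratios of -0.28 and -0.88. Duct markers had 2 of 10 called higher (Tspan8 and Spp1), with sums of 13.41 and 13.90 in the controls and of 13.74 and 14.28 in the mutants, and Cftr was not tested. Leukocyte markers (10 tested, 0 called; sums of 13.40 and 13.18 in the controls, 13.26 and 13.30 in the mutants) had Ptprc among those not tested. Schwann and neural markers (5 tested, 0 called) had sums of 9.22 and 9.55 in the controls and of 9.97 and 10.09 in the mutants, and Gfap and Cdh19 were among those not tested. Islet endocrine markers (15 tested, 0 called) had sums of 19.63 and 19.52 in the controls and of 19.76 and 20.21 in the mutants. The part of these lists in the results was not tested either.

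Prolyl and lysyl hydroxylase genes belong to the hypoxia response in many cells, so other hypoxia targets were read beside them. Of 20 such genes 17 were tested and 0 passed in limma's test, with 1 at an unadjusted p under 0.05 (2528 of all 22266 tested probes). The medians were 0.02 and 0.11. Ratios were above 0 on both arrays for 6, below 0 on both for 4 and of opposite sign for 7. Over all tested probes 32.3% were above 0 on both arrays and 25.3% below 0 on both. Ddit4, a stress-induced inhibitor of mTORC1, had a level of 11.61 in control 1, 10.74 in mutant 1, 11.71 in control 2 and 10.45 in mutant 2. Both mutants were below both controls, with ratios of -0.88 and -1.26 and a limma adjusted p = 0.0683. The glucose transporter Slc2a1 had ratios of 0.10 and 0.76. The carbonic anhydrase Car9, not well above background in control 1, had 0.15 and 0.39. The oxidoreductase Ero1a, not well above background in either control, had 0.17 and 0.36.

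Genes of ascorbate handling and of other 2-oxoglutarate dioxygenases had 13 of 15 tested and 0 called in limma's test. At an unadjusted p under 0.05 there were 2 of them (2528 of all 22266 tested probes). Their median ratios were 0.10 and 0.27. Of these 13 genes 7 had ratios above 0 on both arrays and 0 below 0 on both, against 32.3% and 25.3% of all tested probes. However, Tmlhe, Gulo and the ascorbate transporter Slc23a2, among the 7, were not well above background in either control. They entered the test through the mutant channel, so the count is no support for a direction. Gulo, which makes the last step of vitamin C synthesis in mice, gave 0.31 and 0.39 (limma adjusted p = 0.403), and its mean ran from 0.35 to 1.00 with an offset of 0 and 1.66 with processed signals. The carnitine synthesis enzyme Tmlhe had ratios of 0.30 and 0.43, with a mean of 2.09 with processed signals. Both values are limited by the dim controls. Measured in all 4 samples, the RNA demethylases Alkbh5 and Fto had 0.25 and 0.38, and 0.13 and 0.35.

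Serpinh1 is a heat shock gene as well as a collagen chaperone, and 13 other heat shock genes were tested (Hspa1b was not found by name on the array). None was called in limma's test, 3 had an unadjusted p under 0.05 (2528 of all 22266 tested probes), and the medians were 0.07 and -0.09. The chaperone Hspa1a had ratios of -0.70 and -0.38, the small heat shock protein Hspb1 had 0.49 and 0.49, the heat shock factor Hsf1 had -0.27 and -0.46, and the co-chaperone Dnajb1 had -0.45 and -0.21. Serpinh1, with 1.00 and 0.72, was above all 13 on the first array and on the second.

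Promoter windows were read for the genes whose ratios were above 0 on both arrays and that the reference table holds, to show what letters these promoters share. Each line is the 250 bases before the start of transcription, from RefSeq on GRCm38.p6, written 5′ to 3′ on the gene's own strand. Capitals mark the letters ACGTG or GCGTG, the hypoxia response core, on either strand, where they read CACGT or CACGC if reversed.
Serpinh1 (chromosome 7, 99353240 to 99353489, minus strand): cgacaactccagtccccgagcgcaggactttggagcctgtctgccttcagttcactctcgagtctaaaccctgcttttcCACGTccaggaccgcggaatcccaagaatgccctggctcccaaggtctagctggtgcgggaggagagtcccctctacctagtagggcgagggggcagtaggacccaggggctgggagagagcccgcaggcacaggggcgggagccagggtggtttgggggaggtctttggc
P4ha2 (chromosome 11, 54100674 to 54100923, plus strand): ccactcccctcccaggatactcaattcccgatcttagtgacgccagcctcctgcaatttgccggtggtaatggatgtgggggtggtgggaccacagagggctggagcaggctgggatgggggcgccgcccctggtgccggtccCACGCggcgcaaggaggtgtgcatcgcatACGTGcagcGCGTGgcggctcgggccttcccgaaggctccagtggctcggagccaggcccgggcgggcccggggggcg
Plod3 (chromosome 5, 136986769 to 136987018, plus strand): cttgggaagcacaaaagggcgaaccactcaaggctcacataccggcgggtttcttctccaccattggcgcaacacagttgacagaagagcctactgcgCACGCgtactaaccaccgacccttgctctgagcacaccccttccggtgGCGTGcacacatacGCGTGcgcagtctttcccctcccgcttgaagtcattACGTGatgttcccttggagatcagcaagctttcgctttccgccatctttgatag
The Serpinh1 window held 1 core, P4ha2 held 3 and Plod3 held 4. Among the windows not shown, P4ha1 held 1 ACGTG and 2 GCGTG and Plod1 held 1 GCGTG. The ratios of P4ha1 and Plod1 differed in sign between the arrays. Windows of 6 of the 10 genes were counted. Loxl1, Loxl2 and Plod2 had no window in the reference table, and Lox was left out of the count. Of these 6 windows 5 held either core, against 38.6% of 32851 windows of the same length. The 5 of 6 thus does not describe the whole set of 10 genes. The windows of the 6 genes had a GC content of 55.6% to 70.0%, against a median of 52.4% over all windows. Plod3, with 4 cores, had the lowest GC content, and P4ha3, with 0 cores, had 67.2%. The part of base composition in the count was not tested. ACGTG was present in 4 of 6 (16.6% of all windows), GCGTG in 4 of 6 (28.2%), and the heat shock element GAANNTTC in 0 of 6 (6.69%). A match describes letters in the window and not a bound site.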

How the data were processed

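Islet RNA of control and RbΔK7 mice was read on 2 two-colour Agilent arrays, and the submitters' processing notes name Agilent Feature Extraction 10.7.3.1. Deposited intensity columns hold mean spot signals, median local backgrounds and processed signals per channel, per the file headers. The deposited log10 ratios are red (mutant) over green (control), per the file headers. Flags of spots well above background, saturated or non-uniform are other deposited columns.

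Background was removed by normexp (offset 50; limma 3.58.1, R 4.3.3), and ratios were normalized by loess (span 0.3) within arrays, and Aquantile made the levels common to both arrays. The offset draws dim ratios towards 0, and loess assumes that most probes are alike in both channels. Control spots and 4 non-uniform spots per array were left out, and spots of a probe were averaged. The pairing comes from the design, which puts 1 replicate on each array; lmFit and eBayes tested the ratios against 0, two-sided. This step was run on ratios simulated from its own fitted variance prior. That simulation held no dye effect and no dim-probe floor, so it cannot vouch for the calls here. A gene was represented by its brightest tested probe.

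The members and lists were chosen with earlier results of these data known. Named were all members, every partner gene that passed (at most 8 a list), the 4 of largest mean with 1 sign on both arrays, and up to 2 markers a list. Alternatives changed the background correction, normalization, filter, prior, pairing, source of ratios, probe rule and replicates. Protein sequences were not used here.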

Additional observations from a re-analysis of the deposited data

How the results depend on the processing

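With 2 arrays, each probe had 1 residual degree of freedom, and the calls depended on the processing. The count of called probes over all was 85 and fell to 0 with Agilent's processed signals, an offset of 0, a trended and robust prior, the series matrix values, and separate channels with no replicate block, that is, without the pairing; 2351, 2471, 2143, 2355 and 1497 probes then had an unadjusted p under 0.05 in limma. It was 355 with no filter on dim probes and 6735 with arrays centred on their medians (median centring). Next, the count of genes of the set called higher was 1 and became 0 in those same 5 settings, with both channels required above background (Loxl1 then left the test, and 76 probes were called) and with the mean over tested probes. It was 2 with no filter and 4 with median centring. The number of the genes higher on both arrays was 7 of 8 with median centring, where 87.3% of all tested probes were so, and their median mean ratio was then 0.85 against 0.20; that number was 3 with processed signals or both channels required, 6 of 10 with no filter and 4 otherwise. Median centring moved the medians of all tested probes to 0.39 and 0.84, and relative to their mean median Loxl1 lay at 1.09 and Serpinh1 at 1.05. The cause of these changes was not tested. Without replicate 1 or replicate 2 that median ratio ranged from 0.14 to 0.21; 1 array has no residual degree of freedom, so counts of calls could not be made. The mean ratios of P4ha1, P4ha2, Plod3, Loxl1 and Serpinh1 kept their sign in every alternative that used both arrays; P4ha1 was at -0.02 without replicate 2. Brightness limits Lox, Plod2 and control 1 of Loxl1.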
